A study of Chlorella vulgaris with 6 samples.

Results

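The transcripts described here moved in opposite directions in a pair of mutants of the green alga Chlorella vulgaris: where one mutant stood above wild type, the other stood below it. Of 18600 assembled transcript features, 55 had this pattern, which is 1.12% of the 4891 features with a mean signal of at least 30 over the 6 libraries. In 42 of them EMS-25 was high and UV-715 low, and in 13 EMS-25 was low and UV-715 high. The features were chosen by these same values: a feature was taken when both values of the higher strain were at least 25% above both values of the next strain, with wild type in the middle. The differences between strains given for these 55 are therefore descriptions of what the choice required, and they carry no test. A further feature, TRINITY_DN6031_c7_g3, had 256 and 209.7 in EMS-25 and met the ratios only because it was listed at 0 in both UV-715 and both wild-type libraries. Wild type was not between the mutants there, and it was left out.

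EMS-25 is labelled an EMS mutant and UV-715 a UV mutant of strain SAG 211-12, and the wild type is SAG 211-12 itself, with 2 libraries each. The study title describes the mutants as high-lipid producers, and lipid content is not among the data used here. The labels describe irradiation at 254 nm and picking of single colonies, and give no dose of EMS. Each mutant is a single isolate, so an effect of the mutagen cannot be told apart from the mutations of that isolate. All cultures were in stationary phase at 14 days with a stated optical density of 5, in Bold's Basal medium under continuous light. The messenger RNA was selected by its poly(A) tail and sequenced as paired reads of 75 bases. Replicates are termed biological in the protocol, with no mention of separate cultures, so p-values measure only the spread between these libraries, which may be technical. Bulk RNA was measured, and less RNA per cell cannot be told apart from fewer cells that express a transcript.

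C. vulgaris is a single-celled alga that makes starch and membrane lipid while it grows and shifts carbon into triacylglycerol droplets when growth stops or nitrogen runs short. UV light of short wavelength joins neighbouring pyrimidine bases in DNA, and ethyl methanesulfonate (EMS) alkylates bases, mainly guanine. Both leave mutations scattered over the genome, and each isolated line carries its own set. The features come from an assembly of the reads and carry IDs with no gene names. An ID gives an assembly cluster (DN), a component within it (c) and a gene within the component (g), and features of a component share sequence. No role can be given to a feature here, and no pathway list or species marker could be matched, so the features are ordered by their pattern.

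The deposited values are a normalised expression signal, already scaled by the authors, with sums between 970974 and 1029717 per library. The number of reads per library is unknown, but relative depth could be read from the spacing of low values. Against wild type replicate 1, the replicate 1 libraries stood at 0.988 in EMS-25 and 1.05 in UV-715, and the replicate 2 libraries at 0.397 in EMS-25, 0.493 in UV-715 and 0.243 in wild type. The shallower libraries listed more features at 0 (2826 to 4177, against 1376 to 1485). Only 1 of the 55 features was at 0 in any library, and all 55 passed the filter of the fit, which asked that 2 or more libraries reach 1.

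**Figure D1:**
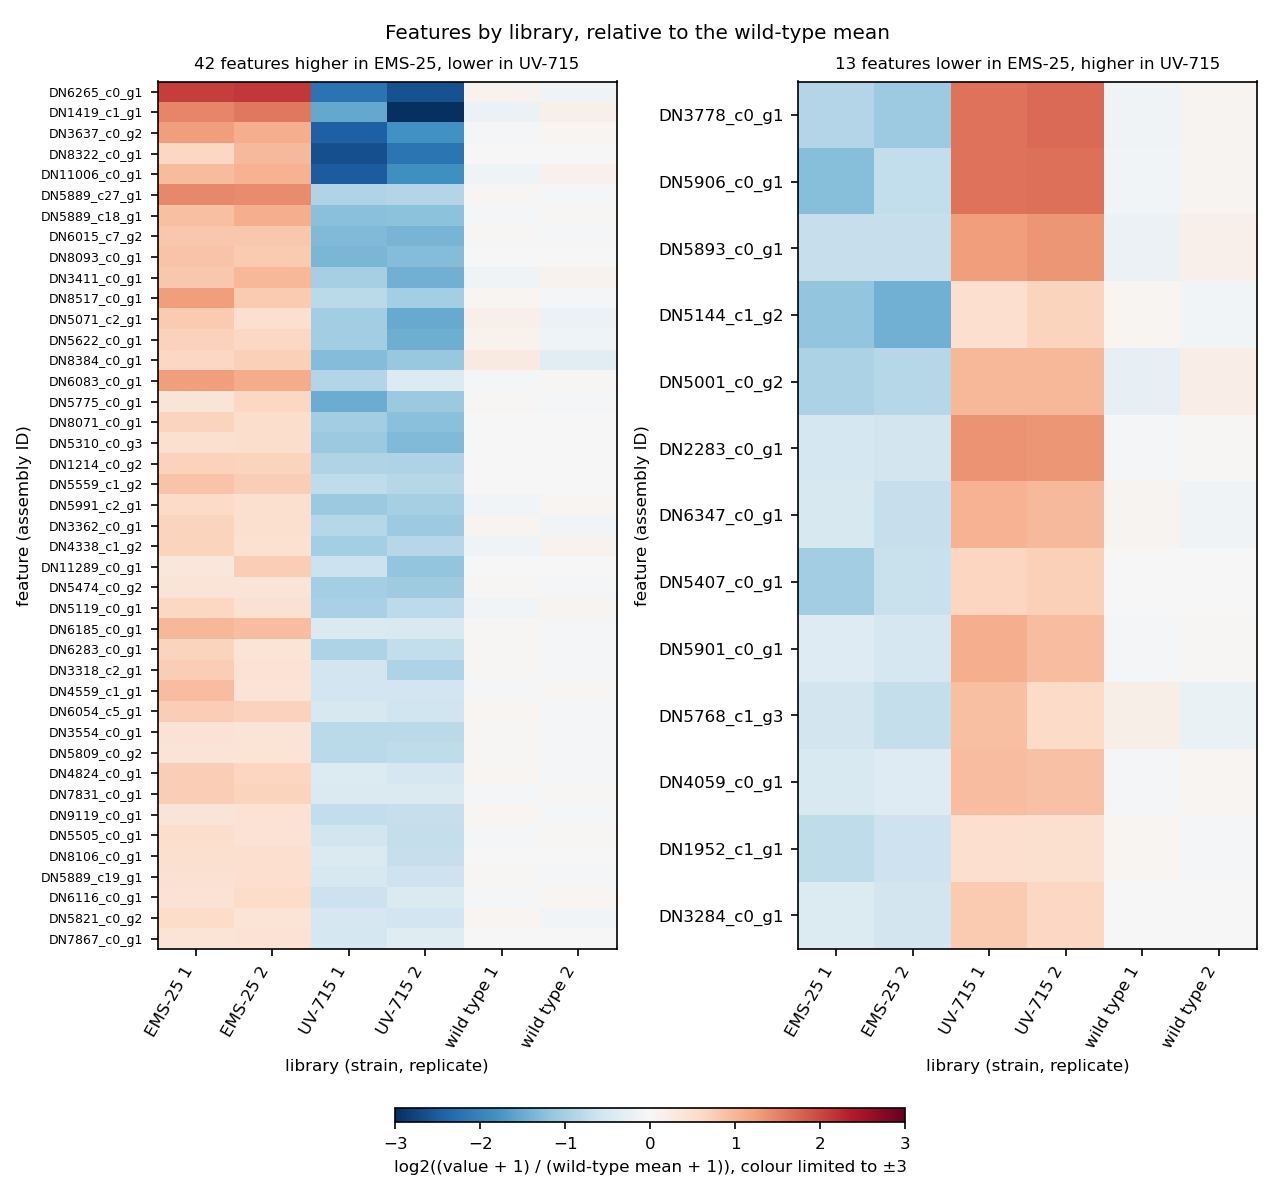
Log2 ratio of each library's value plus 1 to the wild-type mean plus 1 (colour, limited to ±3) for the 42 features high in EMS-25 and low in UV-715 (left) and the 13 with the reverse order (right), with features down the page and the 6 libraries across. Both libraries of each mutant lie on the same side of wild type in every row, as the choice required, and the deepest blues are UV-715 values of the 5 features at the top left.

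The 42 features high in EMS-25 and low in UV-715 held 0.866% and 0.859% of all signal in the EMS-25 libraries, 0.309% and 0.300% in the UV-715 libraries, and 0.534% and 0.533% in the wild-type libraries. The mean of EMS-25 was between 1.86 and 24.8 times that of UV-715, with a median of 2.98. Relative to wild type, EMS-25 stood at 1.31 to 4.34 times (median 1.57) and UV-715 at 0.162 to 0.740 times (median 0.529). The log2 ratio of EMS-25 over wild type had a median of 0.65 over the 42 and 0.02 over all 4891 features of that level, and that of UV-715 over wild type a median of -0.90 over the 42 and 0.01 over the 4891. All log2 ratios of means are taken after adding 1 to each mean, which slightly understates the change of low features.

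The feature with the widest gap between the mutants, TRINITY_DN6265_c0_g1, had 239 and 247 in EMS-25, 11.3 and 8.25 in UV-715, and 59.9 and 51.9 in wild type. EMS-25 stood at 4.34 times and UV-715 at 0.175 times wild type, so that its distance from wild type was nearly even on both sides. TRINITY_DN1419_c1_g1 had 94.9 and 103 in EMS-25, 10.9 and 0 in UV-715, and 29.7 and 37.7 in wild type. The 0 is in UV-715 replicate 2, a library of less depth than UV-715 replicate 1, and this was the only one of the 42 with a 0. The EMS-25 values of both features were tightly matched between libraries, and the wild-type values stood clear of both mutants.

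TRINITY_DN3637_c0_g2 had 90.2 and 81.5 in EMS-25, 6.01 and 10.0 in UV-715, and 35.9 and 39.1 in wild type. In TRINITY_DN8322_c0_g1, the values were 64.7 and 82.8 in EMS-25, 5.89 and 8.34 in UV-715, and 41.2 and 42.4 in wild type. TRINITY_DN11006_c0_g1 had 261 and 281 in EMS-25, 23.2 and 36.7 in UV-715, and 123 and 147 in wild type. In these 3, EMS-25 stood at 1.77 to 2.29 times wild type, and UV-715, the farther strain, at 0.170 to 0.222 times. The 5 features named so far were also the only ones of the 42 whose mutant means were at least 9-fold apart, and the next in order stood at 5.10.

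That next feature, TRINITY_DN5889_c27_g1, had 225 and 221 in EMS-25, 43.5 and 44.0 in UV-715, and 83.0 and 80.1 in wild type. Here EMS-25 was the far strain, at 2.73 times wild type against 0.536 times for UV-715. The libraries of each strain lay close together, and the 3 strains stood far apart. TRINITY_DN5889_c18_g1, of the same assembly cluster, had 505 and 571 in EMS-25, 112 and 115 in UV-715, and 262 and 277 in wild type. Both mutants lay at or near a 2-fold distance from wild type, with EMS-25 at 2.00 times and UV-715 at 0.421 times. Another feature of this cluster, TRINITY_DN5889_c19_g1, had 229 and 238 in EMS-25, 118 and 107 in UV-715, and 170.3 and 163 in wild type, a narrower gap in the same order.

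**Figure D2:**
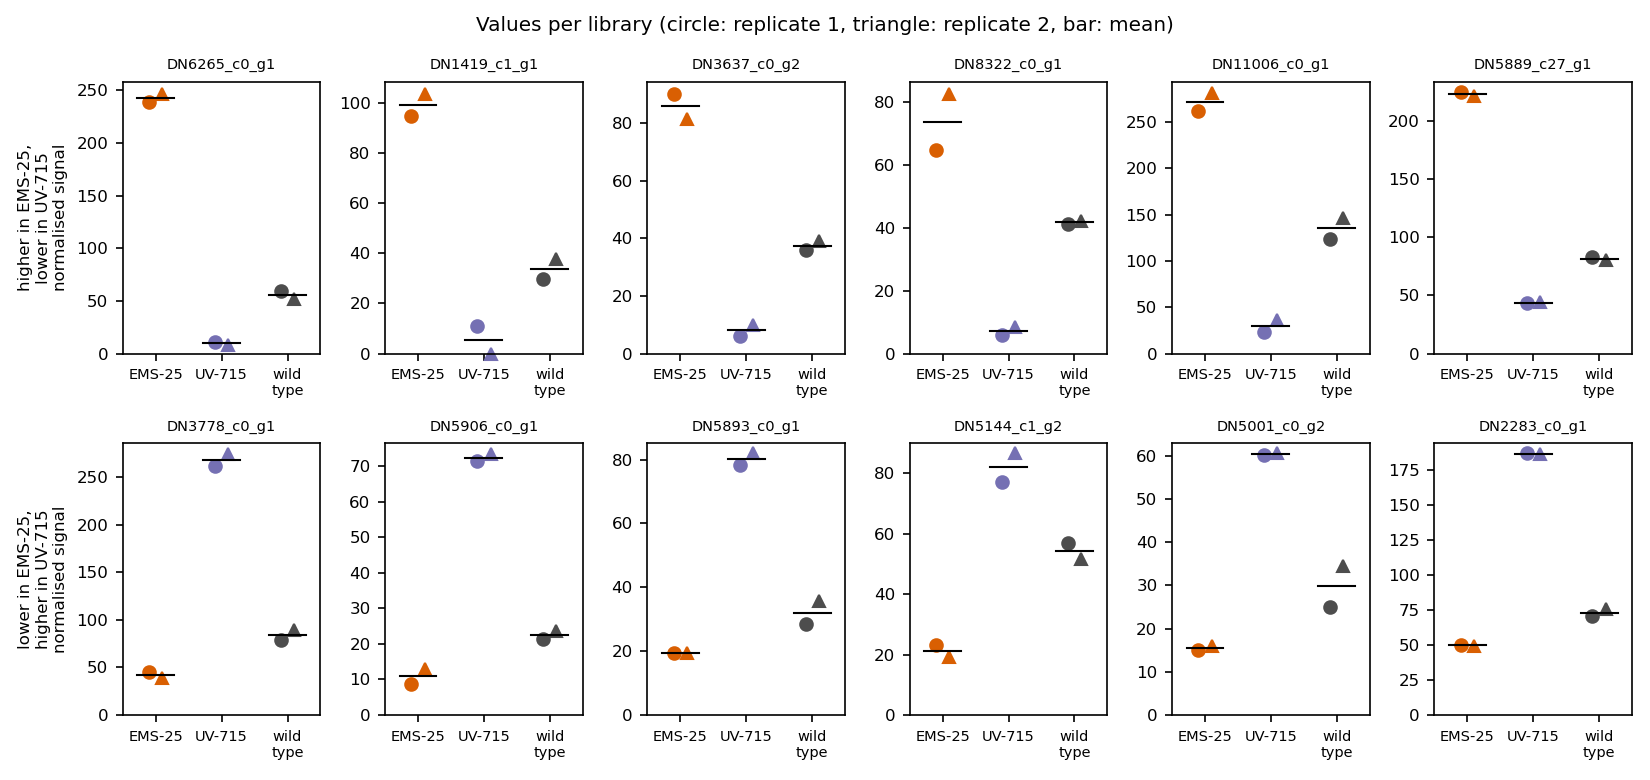
Normalised signal per library (circle, replicate 1; triangle, replicate 2) and strain mean (bar) for the 6 features with the largest ratio of mutant means in each direction; the vertical axis starts at 0 and has its own scale in each panel. In the upper row EMS-25 is highest and UV-715 lowest, as in TRINITY_DN6265_c0_g1 with 239 and 247 against 11.3 and 8.25, and in the lower row the mutants change places.

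Cluster TRINITY_DN5889 was the only one to hold more than 1 of the 55 features. It is a large cluster of 70 features, of which 27 had a mean of at least 30, and so the 3 are 11.1% of its features at this level. In none of the other 24 did all libraries run from UV-715 through wild type to EMS-25. The share of all features with this order was not computed without a minimum step. With a step of 1.1, 116 of the 4891 features had it, so nothing is read from the absence. Both EMS-25 values lay above both UV-715 values in 2 of the 24 and below them in 9, where 35.7% and 32.7% of all 4891 features at this level did so. The sum over the cluster was 5979 and 5486 in EMS-25, 5559 and 5279 in UV-715, and 6563 and 5857 in wild type, so the mutants overlapped in the sum.

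The 4 most abundant of the 42 were TRINITY_DN5889_c18_g1, given above with mutant means 4.74-fold apart, and 3 features with narrower gaps. TRINITY_DN4824_c0_g1 had 1033 and 967 in EMS-25, 469 and 438 in UV-715, and 641 and 596 in wild type. TRINITY_DN5474_c0_g2 had 923 and 916 in EMS-25, 349 and 335 in UV-715, and 725 and 682 in wild type. For TRINITY_DN6185_c0_g1 the values were 739 and 704 in EMS-25, 274 and 269.9 in UV-715, and 381 and 362 in wild type. The mutants differed 2.20-fold, 2.69-fold and 2.65-fold in these, and the libraries of each strain lay close together. They divided differently around wild type: UV-715 took 72.9% of the log2 distance between the mutants in TRINITY_DN5474_c0_g2, and 31.8% in TRINITY_DN6185_c0_g1, the lowest share of the 42.

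EMS-25 was the farther strain from wild type in 8 of the 42 and UV-715 in 34. Over all 4891 features at this level UV-715 was also farther, with a median absolute log2 ratio to wild type of 0.22 against 0.17 for EMS-25. The share of the log2 distance on the UV-715 side ran from 31.8% to 74.9%, with a median of 60.6%. The highest share was that of TRINITY_DN8322_c0_g1. TRINITY_DN6083_c0_g1 lay near the other end, at 34.6%, with 117 and 107 in EMS-25, 25.9 and 36.1 in UV-715, and 47.5 and 49.4 in wild type. EMS-25 was at least 2-fold from wild type in 7 features and UV-715 in 17. Only 4 were at least 2-fold away in both mutants, and these are TRINITY_DN6265_c0_g1, TRINITY_DN1419_c1_g1, TRINITY_DN3637_c0_g2 and TRINITY_DN11006_c0_g1. The shares of all 4891 features that were this far from wild type, or farther from it in UV-715 than in EMS-25, were not computed.

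The remaining features of the 42 had mutant means 1.86-fold to 4.69-fold apart. At the upper end, TRINITY_DN6015_c7_g2 had 88.5 and 87.9 in EMS-25, 19.2 and 18.5 in UV-715, and 50.9 and 48.7 in wild type. TRINITY_DN8093_c0_g1 had 113 and 108 in EMS-25, 23.3 and 24.7 in UV-715, and 62.7 and 61.2 in wild type. These resemble each other closely in ratio, with EMS-25 at 1.77 and 1.78 times and UV-715 at 0.378 and 0.387 times wild type. At the lower end, TRINITY_DN7867_c0_g1 had 48.1 and 49.0 in EMS-25, 24.7 and 27.7 in UV-715, and 36.1 and 35.7 in wild type. It was the only one of the 42 whose mutant means were less than 2-fold apart.

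Libraries of a strain were not equally close in all of them. TRINITY_DN8384_c0_g1 had 72.8 and 78.3 in EMS-25, 18.4 and 20.8 in UV-715, and 57.0 and 37.2 in wild type, so the wild-type libraries differed more than those of either mutant. TRINITY_DN4559_c1_g1 had 101 and 70.6 in EMS-25, 35.0 and 34.8 in UV-715, and 50.9 and 54.2 in wild type, and here EMS-25 was the uneven strain. Over the 42, the median absolute log2 ratio of the replicates was 0.10 in EMS-25, 0.17 in UV-715 and 0.09 in wild type. Over the 4891 features of the same level it was 0.11 in EMS-25, 0.10 in UV-715 and 0.13 in wild type. The rule limits this spread in the features it takes, so the 2 sets of medians are not compared by a test.

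The members nearest the threshold show what the step of 25% decides. TRINITY_DN5071_c2_g1, just inside, had 185 and 151 in EMS-25, 51.3 and 37.2 in UV-715, and 120.1 and 94.9 in wild type. Its lower EMS-25 value was 1.26 times its higher wild-type value, although the mutant means differed 3.80-fold. TRINITY_DN9119_c0_g1, also just inside, had 90.5 and 94.5 in EMS-25, 41.3 and 42.4 in UV-715, and 71.7 and 66.6 in wild type. Just outside were TRINITY_DN4040_c0_g1, with 243 and 234 in EMS-25, 132 and 89.8 in UV-715, and 173 and 165 in wild type, and TRINITY_DN5971_c7_g2, with 106 and 102 in EMS-25, 53.7 and 47.5 in UV-715, and 81.9 and 68.1 in wild type. Their smaller steps were 1.246 and 1.245, and their mutant means differed 2.15-fold and 2.05-fold, within the range of the features taken.

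The 13 features low in EMS-25 and high in UV-715 held 0.0785% and 0.0796% of all signal in the EMS-25 libraries, 0.250% and 0.243% in the UV-715 libraries, and 0.128% and 0.127% in the wild-type libraries. The mean of EMS-25 was between 0.150 and 0.438 times that of UV-715, with a median of 0.326. Against wild type, EMS-25 stood at 0.392 to 0.740 times (median 0.617) and UV-715 at 1.41 to 3.22 times (median 2.03). None reached a mean of 300 over the 6 libraries, a level that 4 of the 42 features of the other order reached.

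The 2 widest gaps were alike in ratio. TRINITY_DN3778_c0_g1 had 45.5 and 39.1 in EMS-25, 262 and 274 in UV-715, and 78.4 and 89.7 in wild type. TRINITY_DN5906_c0_g1 had 8.64 and 13.1 in EMS-25, 71.5 and 73.3 in UV-715, and 21.3 and 23.8 in wild type. EMS-25 stood at 0.503 and 0.482 times wild type in them and UV-715 at 3.19 and 3.22 times. TRINITY_DN5906_c0_g1 was the only one of the 13 with both mutants at least 2-fold from wild type.

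TRINITY_DN5893_c0_g1 had 19.5 and 19.6 in EMS-25, 78.4 and 82.1 in UV-715, and 28.4 and 35.8 in wild type. TRINITY_DN2283_c0_g1 had 50.2 and 49.5 in EMS-25, 187 and 186 in UV-715, and 70.7 and 75.5 in wild type. In both, the mutant libraries agreed to within a few percent and UV-715 stood at 2.50 and 2.55 times wild type. TRINITY_DN2283_c0_g1 had the largest UV-715 share of the 13, at 71.2% of the log2 distance.

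TRINITY_DN5144_c1_g2 had the opposite balance, with 23.3 and 19.2 in EMS-25, 77.3 and 86.7 in UV-715, and 56.9 and 51.5 in wild type. EMS-25 stood at 0.392 times wild type, the lowest EMS-25 ratio of the 13, and only 31.0% of the log2 distance lay on the UV-715 side. TRINITY_DN5001_c0_g2 had 15.0 and 16.1 in EMS-25, 60.2 and 60.7 in UV-715, and 25.0 and 34.6 in wild type, close to evenly placed. EMS-25 was the farther strain in 3 of the 13 and UV-715 in 10, and the median UV-715 share was 62.4%. As given above, UV-715 was also the farther strain by the medians over all features at this level.

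The 4 most abundant of the 13 were TRINITY_DN3778_c0_g1, given above with the widest gap on the log2 scale, and 3 features with narrower gaps. TRINITY_DN5768_c1_g3 had 172 and 152 in EMS-25, 467 and 372 in UV-715, and 284 and 218 in wild type. TRINITY_DN1952_c1_g1 had 151 and 167 in EMS-25, 367 and 361 in UV-715, and 268 and 248 in wild type. For TRINITY_DN5901_c0_g1 the values were 155 and 143 in EMS-25, 434 and 388 in UV-715, and 198 and 208 in wild type. EMS-25 was at 0.386, 0.438 and 0.361 times UV-715 in them, and TRINITY_DN5768_c1_g3 had the widest spread between replicates.

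TRINITY_DN5407_c0_g1 had 58.3 and 76.2 in EMS-25, 190.2 and 198 in UV-715, and 121 and 121 in wild type. TRINITY_DN6347_c0_g1 had 42.6 and 37.1 in EMS-25, 125 and 119 in UV-715, and 64.2 and 56.4 in wild type. The last of the 13 are TRINITY_DN4059_c0_g1, with 34.1 and 35.5 in EMS-25, 90.3 and 87.6 in UV-715, and 45.1 and 48.9 in wild type, and TRINITY_DN3284_c0_g1, with 33.7 and 30.2 in EMS-25, 77.6 and 69.3 in UV-715, and 44.6 and 45.0 in wild type. In each of the 4, the values of a strain were clear of those of the next. Just inside the threshold were TRINITY_DN5768_c1_g3 and TRINITY_DN4059_c0_g1, with a smaller step of 1.27 in both. Just outside, TRINITY_DN3297_c0_g1 had 50.1 and 49.5 in EMS-25, 101 and 97.8 in UV-715, and 78.6 and 78.7 in wild type, a smaller step of 1.244. TRINITY_DN4097_c0_g2 had 63.4 and 71.4 in EMS-25, 130.5 and 125 in UV-715, and 101 and 98.1 in wild type, a smaller step of 1.241.

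**Figure D3:**
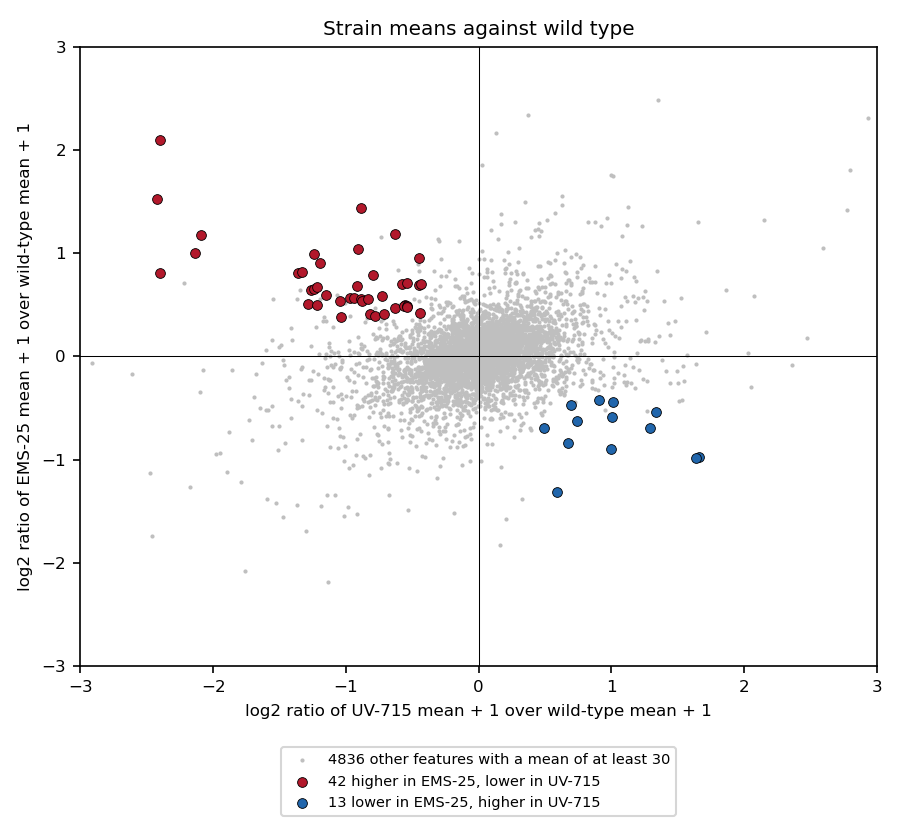
Log2 ratio of the UV-715 mean plus 1 (horizontal) and of the EMS-25 mean plus 1 (vertical) over the wild-type mean plus 1, for all features with a mean of at least 30; grey points are the 4836 features not chosen, red the 42 and blue the 13 chosen, and 9 features lie outside the axes. Both axes use the same wild-type libraries. The red points reach farther from the origin than the blue ones, to 2.10 for EMS-25 and -2.43 for UV-715.

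In a limma fit of all 18096 features that passed the filter, the contrasts that had chosen the features were also tested, and nothing is read from the calls of the 55. Of the 42, 33 were called lower in UV-715 than in wild type (2.34% of all features tested), 16 were called higher in EMS-25 than in wild type (0.779%), and 41 were called higher in EMS-25 than in UV-715 (2.77%). Of the 13, 11 were called higher in UV-715 than in wild type (1.87% of all features tested), 4 were called lower in EMS-25 than in wild type (0.37%), and all 13 were called lower in EMS-25 than in UV-715 (1.88%). Both mutants were called against wild type, in opposite directions, in 15 of the 42 and 3 of the 13 (0.116% of all features tested).

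At a mean of at least 30, the level of all 55, these calls were more frequent among all features: 7.32% were lower and 6.13% higher in UV-715 than in wild type, 2.7% were higher in EMS-25 than in wild type and 61 of the 4891 lower, and 8.51% were higher and 5.93% lower in EMS-25 than in UV-715.

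Opposite calls were also made for 3 features that were not chosen, all of them abundant. TRINITY_DN3674_c0_g1 had 967 and 947 in EMS-25, 574 and 549 in UV-715, and 761 and 776 in wild type. TRINITY_DN3392_c0_g1 had 1008 and 968 in EMS-25, 589.6 and 594 in UV-715, and 703 and 693 in wild type. TRINITY_DN2583_c0_g1 had 1069 and 1001 in EMS-25, 1664 and 1655 in UV-715, and 1388 and 1390.3 in wild type. Their smaller steps, of 1.22, 1.17 and 1.19 times, fell short of 25%, while the libraries of each strain were close together. These 3 were named after their values were seen.

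The rule was also applied to the 3 libraries of 1 replicate number alone. The order of the features taken was then read in the 3 libraries of the other number. The shares kept are no independent test of the features described above, because all libraries took part in choosing those. A feature that met the rule on all libraries has steps of 25% in both replicate numbers. It is therefore kept by construction wherever its mean over the choosing libraries reaches the minimum. How many of the features kept are of this kind was not counted. The shares below are thus partly a result of the choice, and no replication is read from them. The replicates may also be technical. With replicate 1 choosing, 94 features were taken as high in EMS-25 and low in UV-715. In replicate 2, 74 of them (78.7%) kept the order of the strains, which 18.5% of all 4923 features with that minimum mean had there. With steps of 25%, 53 (56.4%) kept it, against 2.17% of all. With replicate 2 choosing, 104 were taken, and 85 (81.7%) kept the order in replicate 1, against 20.6% of all 4870 features, 54 of them with steps of 25% (51.9%, against 1.93%).

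For the order with EMS-25 low and UV-715 high, replicate 1 took 60 such features. Of these, 42 (70%) kept the order in replicate 2 (16.7% of the 4923 features). With steps of 25%, 20 (33.3%) kept it (1.58% of all). Replicate 2 took 76, of which 59 (77.6%) kept the order in replicate 1 (19.1% of all) and 22 (28.9%) with steps of 25% (1.4% of all). Features that met the rule on all libraries are kept by construction here too. The difference between the 2 directions in these shares was not tested.

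The size of the changes was also read in the libraries that had not chosen. For the 94 features, the median log2 ratio of EMS-25 over wild type was 0.53 in replicate 1, which chose them, and 0.50 in replicate 2, and that of UV-715 over wild type was -0.71 in both. For the 104 features chosen on replicate 2, EMS-25 stood at 0.54 in replicate 2 and 0.41 in replicate 1, and UV-715 at -0.73 in replicate 2 and -0.62 in replicate 1. For the 60 features of the reverse order, EMS-25 stood at -0.44 in replicate 1 and -0.20 in replicate 2, while UV-715 stood at 0.64 in replicate 1 and 0.75 in replicate 2. With replicate 2 choosing, EMS-25 stood at -0.50 in replicate 2 and -0.28 in replicate 1 for the 76 features, and UV-715 at 0.56 in replicate 2 and 0.49 in replicate 1. Most of these medians were thus smaller in the replicate that had not chosen; the UV-715 median of the 94 was not, and that of the 60 was larger there. In replicate 2, EMS-25 lay below wild type in 46 of the 60, and UV-715 above wild type in 56.

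**Figure D4:**
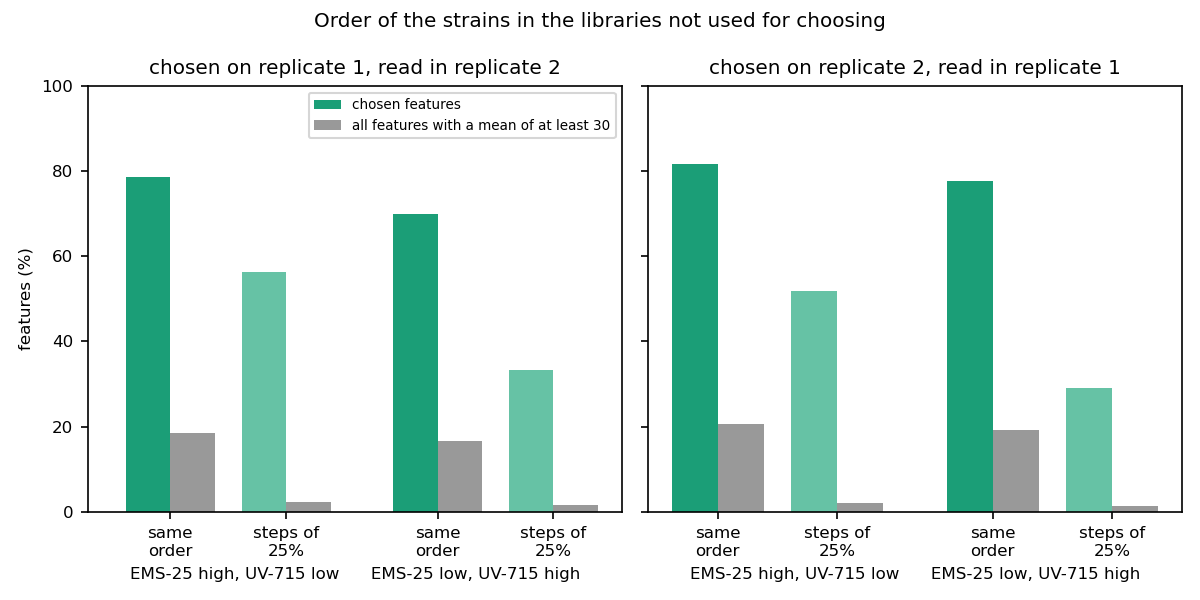
Share of features (%, from 0 to 100) with the same order of strains in the replicate that did not choose them, without and with steps of 25%, for features chosen on replicate 1 (left) and on replicate 2 (right); grey bars give the share of all features with a mean of at least 30. The share at the full step is 56.4% and 51.9% for features high in EMS-25, and 33.3% and 28.9% for features low in EMS-25. The shares include features that met the rule on all libraries, which are kept by construction.

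Features of the same assembly component offer values that the choice did not use, although reads of similar sequences can be divided between them in the counting. Of the 55, 35 were alone in their component: 27 of the 42 (64.3%) and 8 of the 13 (61.5%), where 66.7% of all features at this level were. The other 20 had 24 further features in their components, 17 beside the 42 and 7 beside the 13, and none of the 24 was itself among the 55. Between the mutants, limma called 4 of the 17 higher in EMS-25 (2.77% of all features tested) and none lower, and it called 2 of the 5 tested beside the 13 lower (1.88%) and none higher. All 6 thus moved the same way between the mutants as the feature beside them, but only 1 call was made when any single EMS-25 or UV-715 library was left out, and 0 without limma's intensity trend. The other 2 of the 7 were at or near 0 and not tested. Over all features tested, 4.65% were called between the mutants in either direction. A mean of at least 30 was reached by 9 of the 17 and 3 of the 7. At that level, 8.51% of all features were called higher and 5.93% lower in EMS-25 than in UV-715.

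The one with the highest signal was TRINITY_DN5768_c1_g1, beside TRINITY_DN5768_c1_g3. It had 359 and 307 in EMS-25, 757 and 728 in UV-715, and 317 and 354 in wild type. Its log2 fold change was -1.16 between EMS-25 and UV-715 (SE 0.09, adjusted p 0.00318 by limma) and 1.15 between UV-715 and wild type (SE 0.09, adjusted p 0.00353), and -0.01 between EMS-25 and wild type (SE 0.09, adjusted p 0.978). UV-715 thus stood apart from overlapping EMS-25 and wild-type values, where the chosen feature of the component had all 3 strains apart. TRINITY_DN5144_c1_g1, beside TRINITY_DN5144_c1_g2, had the same form, with 10.2 and 9.39 in EMS-25, 32.3 and 25.9 in UV-715, and 10.8 and 8.82 in wild type. Its log2 fold change was -1.47 between EMS-25 and UV-715 (SE 0.25, adjusted p 0.0357 by limma) and 1.48 between UV-715 and wild type (SE 0.25, adjusted p 0.0376).

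Beside the 42, TRINITY_DN1214_c0_g1 had 110.5 and 93.4 in EMS-25, 31.0 and 42.5 in UV-715, and 65.5 and 47.8 in wild type. The order was that of TRINITY_DN1214_c0_g2, which had 305 and 299.9 in EMS-25, 100.3 and 98.9 in UV-715, and 189 and 188 in wild type. The log2 fold change of TRINITY_DN1214_c0_g1 between EMS-25 and UV-715 was 1.46 (SE 0.21, adjusted p 0.0213 by limma), and neither mutant passed the test against wild type. TRINITY_DN3411_c0_g2 also kept the order in all libraries, at 148 and 142 in EMS-25, 101 and 111 in UV-715, and 119 and 122 in wild type, with a log2 fold change between the mutants of 0.45 (SE 0.07, adjusted p 0.0228 by limma).

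In the other features called beside the 42, the values of 1 mutant overlapped wild type. TRINITY_DN4338_c1_g1 had 410.1 and 352 in EMS-25, 276 and 248 in UV-715, and 429.7 and 395 in wild type. By limma it was lower in UV-715 than in wild type (adjusted p 0.0224, log2 fold change -0.65 with an SE of 0.10), and between the mutants the adjusted p was 0.0397 (log2 fold change 0.54, SE 0.10). Its EMS-25 values overlapped wild type. TRINITY_DN5474_c0_g1 had 70.7 and 58.3 in EMS-25, 38.9 and 39.4 in UV-715, and 35.4 and 39.5 in wild type, so its EMS-25 values stood alone above overlapping values of the others (log2 fold change between the mutants 0.70, SE 0.13, adjusted p 0.0439 by limma). Neither mutant was called against wild type there by limma (adjusted p 0.0743 for EMS-25 and 0.831 for UV-715).

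Against wild type, the limma fit called 1 of the 17 lower in UV-715 (2.34% of all features tested) and 2 of the 5 higher (1.87%), where 4.21% were called in either direction. At a mean of at least 30, 7.32% of all features were called lower and 6.13% higher in UV-715. For EMS-25 against wild type it called 0 of the 22 tested (1.15% of all features in either direction). The unadjusted p by limma was under 0.05 in 5 of the 22, and in 2448 of all 18096 features tested. Without the intensity trend, limma called none of the 22 in any comparison.

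Strain means ran in the same order as the chosen feature in 5 of the 17 and 2 of the 7, and in both of these 2 EMS-25 and wild type overlapped. Among the 5 was TRINITY_DN5889_c18_g2, listed at 0 in both UV-715 libraries and in all replicate 2 libraries. The share of all features with strain means so ordered was not computed. Read in 1 replicate number, 18.5% and 20.6% of all features with a mean of at least 30 in the libraries of the other number had the order of the 42. The order of the 13 was found in 16.7% and 19.1%. Strain means ran in the opposite order in 0 of the 17 and in 1 of the 7, TRINITY_DN5407_c0_g2, which had 53.1 and 37.1 in EMS-25, 32.1 and 26.8 in UV-715, and 42.6 and 33.5 in wild type. Its values overlapped between EMS-25 and wild type, and between UV-715 and no other strain. Sums over a component include the chosen feature, so their order partly follows from the choice and nothing is read from these counts. Of the 15 components beside the 42, 7 sums kept the order with steps of 25% in all libraries, and 14 kept it with no minimum step. Of the 5 components beside the 13, 4 kept it with steps of 25%. The exceptions without a minimum step were TRINITY_DN4338_c1, with a sum of 469 and 403 in EMS-25, 294 and 268 in UV-715, and 464 and 435 in wild type, and TRINITY_DN5768_c1, with a sum of 597 and 541 in EMS-25, 1352 and 1208 in UV-715, and 676 and 595 in wild type. In both sums EMS-25 overlapped wild type while UV-715 stood apart.

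**Figure D5:**
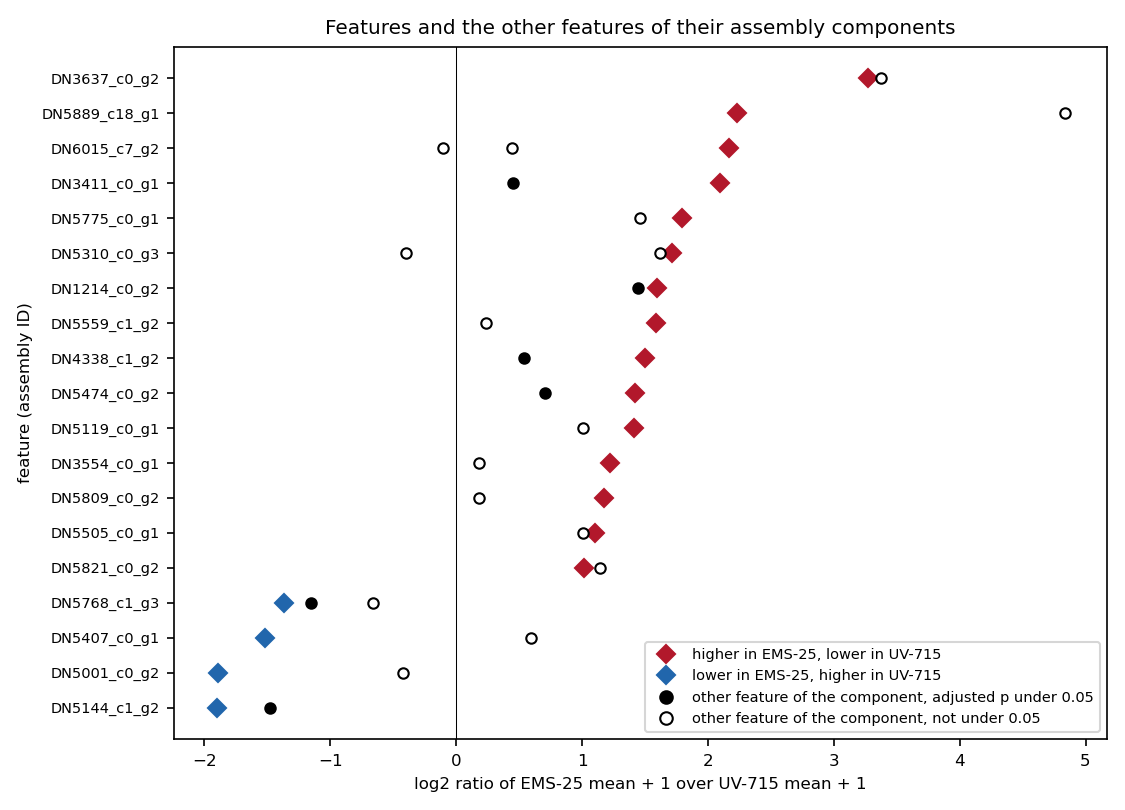
Log2 ratio of the EMS-25 mean plus 1 over the UV-715 mean plus 1 for 19 chosen features (diamonds) and the 22 other features of their assembly components with a mean of at least 1 (circles, filled where limma's adjusted p was under 0.05). The 6 filled circles lie on the same side of 0 as their diamonds, and the circle of TRINITY_DN5889_c18_g1 at the far right is a feature listed at 0 in both UV-715 libraries and in all replicate 2 libraries.

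The mean of the chosen features over the 6 libraries had a median of 65.3 in the 42 and 74.2 in the 13, and 65.7 in all 4891 features at this level. A mean of at least 100 was found in 19 of the 42 (45.2%), in 6 of the 13 (46.2%) and in 1610 of the 4891 (32.9%). The choice used these same values, and whether a higher mean makes the rule easier to meet was not tested. A place alone in the assembly cluster was found for 17 of the 42 (40.5%), 5 of the 13 (38.5%) and 41.6% of the 4891. Without sequences or names, no other property could be compared.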

How the data were processed

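Libraries of polyadenylated RNA, 2 of each of EMS-25, UV-715 and wild type, were analysed. The authors deposited a table of normalised expression signal for 18600 features. RSEM, edgeR, Trimmomatic 0.32 and FastQC 0.11.5 are listed in the submitters' processing notes with no step assigned. The sources used here do not give the aligner, the assembly or any filter. The library sums, close to each other, have the form of a per-length abundance scaled by a factor per library, so no count model was used.

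The features and comparisons were chosen with earlier results of these data known. Wild type was taken as the middle strain only with values strictly between those of the mutants. Relative depth is the commonest ratio between libraries among features under 6 in wild type replicate 1. Features with at least 1 in at least 2 of the libraries fitted (18096 of 18600) were fitted as log2(value + 1) in limma 3.58.1 (R 4.3.3), with an intensity trend and a term for strain; the fit had 3 residual degrees of freedom and 2.66 from the prior. P-values are two-sided, and calls had a Benjamini-Hochberg adjusted p under 0.05 over all features of a comparison. The fit was also run on simulated data in which only UV-715 was changed, in features with a mean of at least 30. No result given here rests on that run. Figures were drawn with matplotlib 3.10.9, and pandas 2.3.3 with numpy 2.4.6 under Python 3.11.15 served the other steps.

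Named per direction were the 6 features with the largest ratio of mutant means, the 4 with the highest mean, the 3 with the largest and the 2 with the smallest of their smaller steps, the 2 just outside, the 2 with the largest share of the log2 distance on each mutant's side, and up to 4 that shared a component with another chosen feature or with one of opposite order. Other features were named after their values were seen. Alternatives covered the step, the minimum mean, scaling, pseudocount, filter, trend, strains fitted, replicate block and each library left out.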

Additional observations from a re-analysis of the deposited data

Results flagged for a closer look

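All 55 features were flagged because they met the rule, with EMS-25 high in 42 and low in 13. Every EMS-25 value lay on one side of wild type and every UV-715 value on the other, with steps of at least 25%. The order is not particular to them, since 116 and 65 features had it with a step of 1.1. The choice required the order and the step, so limma's calls between the mutants for the 55 (41 of the 42 and 13 of the 13) are no independent test of the difference. Among those named, the log2 ratio of EMS-25 over UV-715 was 4.50 for TRINITY_DN6265_c0_g1, 3.96 for TRINITY_DN1419_c1_g1, 3.27 for TRINITY_DN3637_c0_g2, 3.20 for TRINITY_DN8322_c0_g1 and 3.14 for TRINITY_DN11006_c0_g1. It was 2.32 for TRINITY_DN5889_c27_g1, 2.23 for TRINITY_DN5889_c18_g1, 1.90 for TRINITY_DN5071_c2_g1, 1.82 for TRINITY_DN6083_c0_g1, 1.42 for TRINITY_DN5474_c0_g2, 1.40 for TRINITY_DN6185_c0_g1, 1.14 for TRINITY_DN4824_c0_g1 and 1.13 for TRINITY_DN9119_c0_g1.

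In the reverse order, this log2 ratio was -2.63 for both TRINITY_DN3778_c0_g1 and TRINITY_DN5906_c0_g1, -1.98 for TRINITY_DN5893_c0_g1, -1.90 for TRINITY_DN5144_c1_g2, -1.89 for TRINITY_DN5001_c0_g2 and -1.88 for TRINITY_DN2283_c0_g1. It was -1.51 for TRINITY_DN5407_c0_g1, -1.46 for TRINITY_DN5901_c0_g1, -1.37 for TRINITY_DN5768_c1_g3, -1.33 for TRINITY_DN4059_c0_g1 and -1.18 for TRINITY_DN1952_c1_g1.

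For 6 features beside the chosen ones in their components, the effects of the mutants differed when limma compared the mutants directly, with 1 call when any single EMS-25 or UV-715 library was left out and 0 without the intensity trend. The adjusted p was 0.00318 for TRINITY_DN5768_c1_g1, 0.0213 for TRINITY_DN1214_c0_g1, 0.0228 for TRINITY_DN3411_c0_g2, 0.0357 for TRINITY_DN5144_c1_g1, 0.0397 for TRINITY_DN4338_c1_g1 and 0.0439 for TRINITY_DN5474_c0_g1.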

How the results depend on the processing

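The number of chosen features followed the rule's settings: the counts of features high and low in EMS-25 were 116 and 65 with a step of 1.1, 13 and 4 with 1.5, 67 and 33 with a minimum mean of 10, and 19 and 6 with 100. Under values set to the same sum they were 40 and 17, of which 38 and 13 were among the 42 and 13. Leaving out a library gave 50 to 62 features high in EMS-25 and 14 to 32 low in it. The features low in EMS-25 numbered 32 and 25 without EMS-25 replicate 1 and 2, and 29 and 25 without wild type replicate 1 and 2. Depth is unknown in absolute terms and limits low values most.

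Of the 55, limma called 44 in UV-715 against wild type, 20 in EMS-25 against wild type and 54 between the mutants. Without the intensity trend it called 6, 0 and 27, with 2968, 1868 and 2802 of all features at an unadjusted p under 0.05. A filter of a mean of at least 30 gave 36 for EMS-25 against wild type. Each library left out in turn gave 17 to 33, 2 to 9 and 43 to 53 of the 55. The 17 came without UV-715 replicate 2 and the 2 without wild type replicate 2. Over all features the counts were 762, 208 and 841. They were 170, 58 and 252 without the trend, 1158, 479 and 1213 with the filter at 30, 489, 85 and 746 with the compared strains fitted alone, and 200 to 619, 22 to 144 and 245 to 743 with a library left out. Without the trend, 69.4% of the UV-715 calls and 40.1% of the calls between the mutants were higher ones (44.5% and 59.6% as reported).

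Of the other features in the components, 3, 0 and 6 were called. Without the trend the counts were 0, 0 and 0, with the filter at 30 2 in EMS-25 against wild type, and with a library left out 1 to 2, 0 and 1 to 5. The 6 calls between the mutants became 1 without any single EMS-25 or UV-715 library.

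The labels give the strains the same replicate numbers and do not say that a number marks a shared culture. The deviations of same-numbered libraries had an r of -0.08 to 0.14 across features with a mean of at least 30, so the numbers were not taken to pair the samples. The number does mark depth, since all replicate 2 libraries were the shallower ones. With a replicate block, limma called 40, 19 and 53 of the 55, 658, 172 and 712 of all features, and 2, 1 and 5 of the features beside the chosen ones.

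The share of features that kept the order in the other replicate was 93.3% and 90% (chosen on replicate 1 and 2) for those high in EMS-25 with a step of 1.5, and 93.3% and 100% with a minimum mean of 100. For those low in EMS-25 it was 58.3% and 86.7% with a step of 1.5, and 100% and 81.8% with a minimum mean of 100. Features that met the rule on all libraries at the same setting are kept by construction in these shares. The cause of the changes was not tested.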
